A study of Mus musculus with 3 samples.

Results

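The positions described here are the crosslink positions that the authors labelled as open reading frame of a protein-coding gene and around which counts were clustered. They come from individual-nucleotide resolution crosslinking and immunoprecipitation (iCLIP) of ZFP36L1 in mouse thymocytes, deposited as a single list of stranded positions, each with a count. The authors' extended value of a position is the sum of counts within 15 nt on either side, and the clustered positions were chosen by that measured value alone, at a threshold of 6 or more. This gave 3862 positions in 530 genes, out of 34603 positions labelled coding in 6793 genes and 462392 positions in the whole list. The clustered positions were thus 11.2% of the positions labelled coding and 0.835% of the list, and the genes that held them were 7.8% of the genes with a position labelled coding. Both shares are set by the threshold and are no result.

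The libraries came from total naive thymocytes of the strain C57BL/6JBabr, 1 of the DCKO genotype from 1 experiment and 2 of the WT genotype from 2 independent experiments. DCKO stands for the double conditional knockout of Zfp36l1 and Zfp36l2, and the driver of the deletion is not given in the labels. Cells of both genotypes were irradiated with ultraviolet light at 300 mJ/cm2 and lysed, RNA bound to the protein was recovered with a Brf1/2 antibody, and complexes were sized on a membrane before the libraries were made. The list does not separate libraries, and the sources used here do not state which of the 3 it combines. DCKO and WT cells could therefore not be compared, no value below has a replicate error, and signal that does not depend on ZFP36L1 or ZFP36L2 was not separated from signal that does.

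ZFP36L1 belongs to the ZFP36 family of zinc finger proteins, which bind AU-rich elements in messenger RNA and recruit the deadenylation machinery, so that the bound transcript is shortened and degraded. The core of such an element is UAUUUA, written TATTTA below, and it is best known from 3′ UTRs of cytokine, cell cycle and stress response transcripts. Ultraviolet light links protein to RNA preferentially at uridines, and reverse transcription stops next to the linked base, which is how iCLIP places a contact on a single nucleotide. In developing thymocytes ZFP36L1 and ZFP36L2 are known as brakes on the cell cycle.

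The strongest clustered positions show the kinds of sequence that carried this label. Each sequence below is 29 nt of the GRCm38 genome on the RNA strand, written 5′ to 3′ with T for U, and the listed position is base 15. Capitals mark TATTTA and runs of at least 5 T.

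The first set shows the strongest position in a GENCODE 3′ UTR for genes in which TATTTA lay beside it. They are Trp53inp1 at chr4:11170295-11170323 on the plus strand, Scaf1 at chr7:45003128-45003156, Dusp1 at chr17:26505868-26505896 and Whrn at chr4:63415075-63415103, the last 3 on the minus strand.
Trp53inp1: tcaatttcctttattttgtatTATTTAat
Scaf1: tctgagattctggacaTATTTAtggctcc
Dusp1: ttttaccttTATTTATTTTTgtgtaggtc
Whrn: ccgtgcccctatggTATTTATTTATTTAt

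The next set shows, for 4 genes, the strongest position in the 3′ UTR or, for Ogt, in a retained intron, where the sequence was T-rich or held another motif. Entr1 stands at chr2:26382867-26382895 on the minus strand, Hnrnpl at chr7:28821987-28822015, Ccng2 at chr5:93276049-93276077 and Ogt at chrX:101653912-101653940, the last 3 on the plus strand.
Entr1: ggttgTTTTTTTgTTTTTTTTTTTTaatt
Hnrnpl: TTTTTTTTcttgTTTTTTTTTTTcTTTTT
Ccng2: ataattggtcagtgcatgtaaatataatt
Ogt: actaatgatcttgTTTTTattttctctct

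The third set shows positions inside GENCODE coding exons, none of which had TATTTA in the bases printed. Trip12 stands at chr1:84757765-84757793 on the minus strand, mt-Nd1 at chrM:3027-3055 and Washc1 at chr17:66119056-66119084 on the plus strand, and Satb1 at chr17:51805183-51805211 on the minus strand. In Satb1 the listed position is the last base of an exon, and the bases after it are intron.
Trip12: aattcttaggataatttattttgctgatg
mt-Nd1: cacccattaattaatttaaacctagggat
Washc1: cgaatgtcagactccatcccaccgctgcc
Satb1: ctgcccaagccaaaggtaaaggatgcatt

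Most single positions carried few counts. The clustered positions summed to 9520 counts, 16.2% of the 58713 counts labelled coding and 1.17% of the 814493 counts in the list. A count of 1 stood at 912 positions (23.6%), a count of 2 at 2049 (53.1%), a count of 3 at 250, a count of 4 at 367 and a count of at least 5 at 284. Only 55 positions reached 10 counts, and the highest count was 62. The extended value had a median of 10, quartiles of 7 and 16 and a maximum of 171. Recomputing it within each gene and label gave the deposited value at 100.0% of positions. Just inside the threshold, 750 positions had an extended value of 6 and 441 a value of 7, and just outside it 769 had a value of 5 and 2177 a value of 4. The median count was 2 at each of these values.

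Joined where they lay within 15 nt of each other on one strand of a gene, the clustered positions formed 812 clusters. The median cluster was 12 nt wide with 4 positions and 8 counts, and the largest values were 69 nt, 33 positions and 175 counts. At least 20 counts stood in 94 clusters. In 263 clusters (32.4%) the strongest position held at least 50% of the counts, and 73 clusters were a single position. Counts were spread over many genes: 380 of the 530 genes had 1 cluster, 193 had 1 to 3 positions and 27 had at least 20, with a median of 5. The 5 genes with the highest sum held 12.2% of the counts and the 20 highest held 27.2%. A count is not adjusted for the amount of the transcript, and fewer cells of a type and less RNA per cell cannot be told apart in such libraries.

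A minority of the clustered positions lay in a coding exon of the current annotation. Set against GENCODE vM21 for the named gene, 742 of 3862 (19.2%, 95% Wilson interval 18.0 to 20.5) lay in a coding exon, whereas 19500 of the 30741 positions labelled coding with an extended value below 6 did (63.4%, 62.9 to 64.0). A 3′ UTR held 1729 clustered positions (44.8%, 43.2 to 46.3) and 10.5% (10.2 to 10.9) of those below 6. A transcript that GENCODE calls retained intron held 994 (25.7%, 24.4 to 27.1) and 17.2% (16.8 to 17.6). These intervals cover counting error only, and neighbouring positions of a gene share their transcript, so they are too narrow for a comparison between genes. The extended value chose the clustered positions and grows with the density of counts, so the difference between both sets is a description. The coding exon share of clustered positions was 33.5% outside soft-masked sequence and 26.2% when only the strongest position of each cluster was taken.

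The remaining segments were small. Other non-coding transcripts of the named gene held 195 clustered positions (5.05%) and 4.67% of those below 6, and 5′ UTRs held 124 (3.21%) and 2.72%. For 78 positions in 10 genes (2.02%) the listed name could not be matched to a gene model at that place, against 1.33% of those below 6. Some of these names had turned into dates or carried a gene identifier, so the genes need not be absent from the annotation. In counts, 3′ UTRs held 4466 (46.9%), retained intron transcripts 2134 (22.4%) and coding exons 2067 (21.7%). In genes, a 3′ UTR position was found in 203, a coding exon position in 172 and a retained intron position in 161. Of the retained intron positions, 986 (99.2%) lay in an intron of a coding transcript of the same gene.

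**Figure D1:**
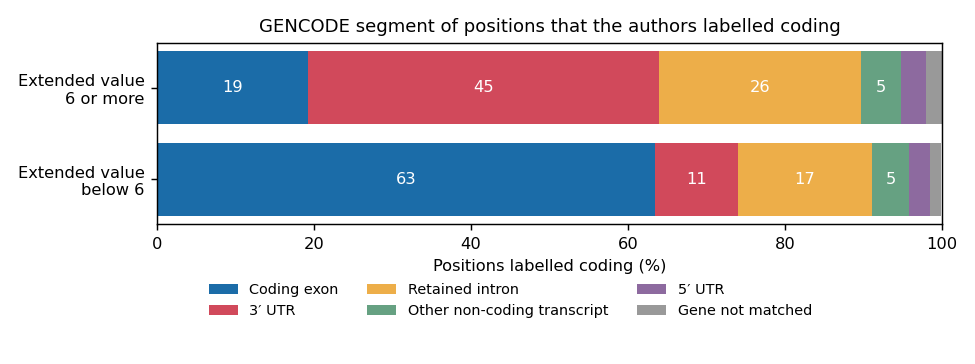
The bars give the GENCODE segment of positions labelled coding, in percent of positions, for 3862 with an extended value of 6 or more above and 30741 below 6. Coding exon is the smaller share above (19.2%, against 63.4%) and 3′ UTR the larger (44.8%, against 10.5%).

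Many genes with 3′ UTR signal under a coding label had no position that the authors labelled 3′ UTR. Of the 203 genes with a clustered position in a GENCODE 3′ UTR, 126 (62.1%) had none, and these held 1034 of the 1729 positions (59.8%). The share was 23.8% (41 of 172) for genes with a clustered position in a coding exon and 41.1% (2795 of 6793) for all genes with a position labelled coding. Trp53inp1, Ccng2, Entr1, Hnrnpl, Scaf1, Dusp1 and Tnfaip3 were among those with none, so that a count over positions labelled 3′ UTR leaves out these transcripts. The sources used here do not name the annotation from which the authors took the label.

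TATTTA lay near more of the clustered positions than of the others in every segment. The pattern was searched on the RNA strand within 20 nt on either side of the position. It was found at 814 of 3862 clustered positions (21.1%, 19.8 to 22.4) and at 3.34% (3.15 to 3.55) of those below 6. The share stood at 29.6% of 14142 positions labelled 3′ UTR and at 31.7% of 38776 labelled intron, both with an extended value of 6 or more. In GENCODE 3′ UTRs the shares were 463 of 1729 (26.8%, 24.7 to 28.9) for clustered positions and 9.38% below 6. In coding exons they were 134 of 742 (18.1%, 15.5 to 21.0) and 1.56%, and in retained introns 148 of 994 (14.9%, 12.8 to 17.2) and 5.72%. The extended value was not computed from sequence, but 41-nt windows around clustered positions were also richer in T, with a mean of 49.5% in 3′ UTRs against 37.8% below 6, and 31.8% against 25.6% in coding exons. What T content alone gives was not tested.

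The share differed little around the threshold and was higher at larger extended values. TATTTA was near 10.8% of positions with an extended value of 6 and 10.4% with a value of 7, and near 10.8% with a value of 5 and 7.53% with a value of 4. Over the clustered positions it was near 13.2% of 1845 with values of 6 to 9, 21.4% of 1233 with 10 to 19, 40.1% of 549 with 20 to 49 and 37.0% of 235 with 50 or more. The last class came from 16 genes. In 3′ UTRs these shares were 13.3%, 21.2%, 53.5% and 38.9%, the last over 175 positions of 11 genes. In retained introns they were 14.1%, 18.5%, 8.08% of 99 positions and none of 13, so the order seen in 3′ UTRs was not seen there. The 99 positions came from 14 genes and the 13 from 1 gene. Coding exons had 13.4%, 24.2%, 28.9% of 38 positions and 33.3% of 39, and the last 39 came from 3 genes.

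T-rich sequence without TATTTA was the other common surrounding. TTTTTT lay within 20 nt of 1110 clustered positions (28.7%, 27.3 to 30.2), against 5.66% below 6, and one of both patterns lay near 47.2%, against 8.68%. Both together were near 2.62% of the clustered positions. In retained introns TTTTTT was near 35.7%, against 14.1% below 6, and in 3′ UTRs near 31.5%, against 12.2%. Coding exons had 6.47%, against 1.64%. The listed base itself was T at 62.2% of clustered positions and at 41.3% of those below 6, in 3′ UTRs at 64.5% and 52.4%, in retained introns at 69.1% and 55.3%, and in coding exons at 45.7% and 35.1%. The soft-masked part of the genome, which holds repeats and low-complexity sequence, took in 51.1% of clustered positions and 14.3% of those below 6. It held 55.9% of the clustered positions in 3′ UTRs, 65.3% in retained introns and 14.8% in coding exons.

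**Figure D2:**
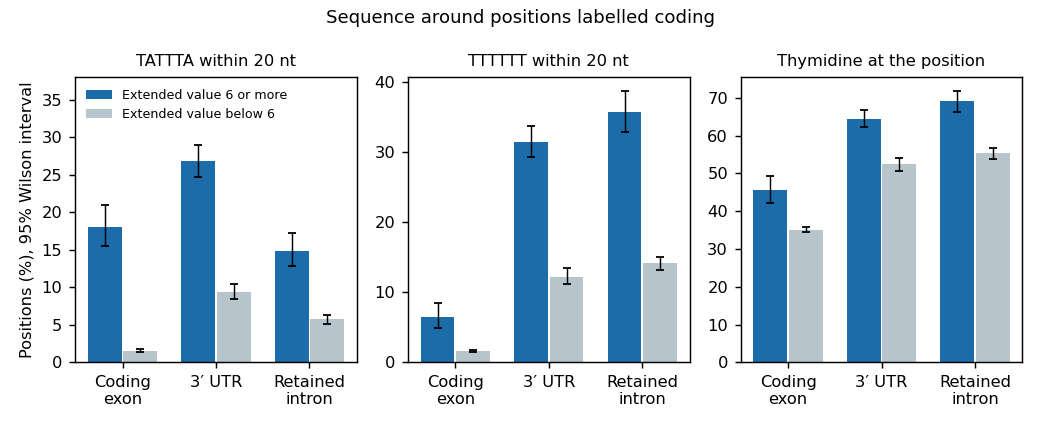
The bars give the percent of positions labelled coding with TATTTA within 20 nt, with TTTTTT within 20 nt and with T as the listed base, by GENCODE segment, for an extended value of 6 or more and below 6, with 95% Wilson intervals. Each of the 9 pairs is higher for the clustered positions, and coding exons are lowest for TTTTTT (6.47%) and for T (45.7%).

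The patterns differed between segments in their exact letters. Among hexamers within 20 nt, TTTATT was the most frequent in 3′ UTRs (34.9%, against 10.9% below 6), TTTTTT in retained introns (35.7%) and TTATTT in coding exons (19.5%, against 1.99%). TGTTTT stood near 26.5% of retained intron positions, against 13.0% below 6. The tandem form, TATTTA followed by TTTA, was near 2.90% of all clustered positions and none of the 742 in coding exons. The upper Wilson limit of the latter is 0.515%, which is too low as a bound because neighbouring positions share their sequence. The tandem form was near 3.14% of positions with an extended value of 6 or more that were labelled 3′ UTR, and near 19.6% of those labelled intron. The 7-base form TATTTAT was near 16.6% of clustered positions, against 1.99% below 6, and the short form ATTTA near 28.8%, against 6.57%.

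TATTTA was found most often at or within a few nt of the listed position, without a sharp maximum in coding exons or 3′ UTRs. In 3′ UTRs its first base coincided with the listed position in 34 of 1729 windows (1.97%) and stood 4 nt before it in 33 and 4 nt after it in 32. In coding exons the most frequent place was also the listed position (11 of 742, 1.48%), followed by 3 nt after it (10) and 2 nt before it (9). Below 6 the highest value stood 2 nt before the listed position in coding exons and 2 nt after it in 3′ UTRs and retained introns. Neighbouring windows overlap, so these numbers are not independent. In retained introns the highest value was again there (25 of 994, 2.52%), followed by a place 8 nt downstream (21) and one 4 nt downstream (19). Tandem copies of the element stand 4 nt apart, as in Whrn, where copies start 0, 4, 8 and 12 nt after the listed position and the last ends beyond the bases printed above.

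**Figure D3:**
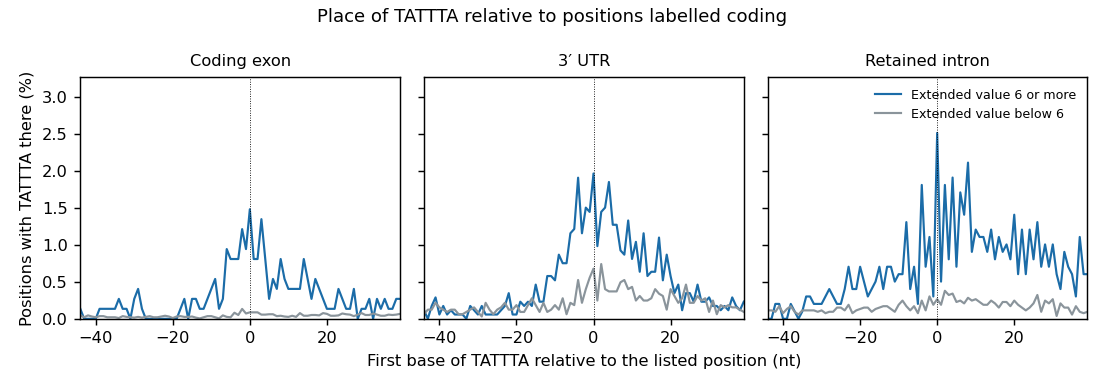
The lines give the percent of positions labelled coding at which the first base of TATTTA stood at each distance, in nt, from the listed position (dotted line), for clustered positions and those with an extended value below 6. Clustered positions are highest at the listed position in all 3 segments, at 1.48%, 1.97% and 2.52%. Nearly equal values stand 3 nt after it in coding exons (1.35%) and 4 nt before it in 3′ UTRs (1.91%).

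Positions in 3′ UTRs were spread along the untranslated region. The 1714 that could be placed in a transcript lay a median of 415.5 nt after the stop codon, with quartiles of 183 and 996.75 nt, and those below 6 had a median of 414 nt. Within 100 nt of the stop codon lay 10.7% of clustered positions and 15.8% of those below 6. Within 1000 nt lay 75.1% and 75.3%.

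Trp53inp1, a stress protein induced by p53, had the most signal of any gene with this label. In its 3′ UTR 155 clustered positions summed to 423 counts, and 32 of them had TATTTA within 20 nt. The gene had 22 clusters, more than any other, and 21 of them lay in the 3′ UTR. The strongest, whose peak is shown above, held 98 counts in 26 nt with its highest position, at 19 counts, 350 nt after the stop codon. A further 76 counts in 62 nt peaked 1775 nt after the stop codon, also at 19 counts, and 28 counts peaked 2113 nt after it at 16. These 3 clusters held all 32 positions with TATTTA nearby, and no other cluster of the gene had TATTTA near a position. The other clusters held 32 counts or fewer each. The largest of them, which peaked 3140 nt after the stop codon, thus exceeded the cluster of 28. The farthest of those with at least 10 counts peaked 4183 nt after the stop codon.

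Ccng2, an atypical cyclin that restrains the cell cycle, had 48 clustered positions with 183 counts, all in the 3′ UTR. A single position held 48 of these counts, 1066 nt after the stop codon in a cluster of 105, and TATTTA lay near only 2 of the 48 positions. The sequence at that position, shown above, holds TGTANATA, the core recognised by Pumilio proteins, where N is any base. That pattern was searched after the sequence had been seen. It lay within 20 nt of 88 clustered positions in 18 genes (2.28%, 1.85 to 2.8), against 0.501% below 6. In 3′ UTRs it lay near 3.93%, against 2.13% below 6, and it was near 2.25% of clustered positions labelled 3′ UTR. In retained introns it lay near 0.503%, against 0.493% below 6, and in coding exons near 0 of 742 positions, against 0.215%. These shares include Ccng2, from which the pattern was taken, and the share over all segments also depends on how many positions lie in 3′ UTRs. Ccng2 gave 20 of the 88 positions and 114 counts, and Rsrp1 10 positions and 30 counts. A gene whose listed name could not be matched gave 9 positions and 19 counts, and Trp53inp1 8 positions and 12 counts.

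Genes whose 3′ UTR signal sat at TATTTA were of several kinds. Scaf1, an SR-related protein that binds the tail of RNA polymerase II, had 97 counts at 8 positions in 1 cluster, 34 of them at the position shown, and TATTTA was near all 8. Dusp1, a phosphatase that inactivates MAP kinases and whose transcript carries AU-rich elements, had 90 counts at 29 positions, 26 of them near TATTTA. Its 3 clusters held 55 counts at 398 nt, 25 at 583 nt and 10 at 74 nt after the stop codon. Whrn, which encodes the scaffold protein whirlin, had 66 counts at 22 positions in 1 cluster, all near TATTTA.

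Further genes had TATTTA near some or all of their 3′ UTR positions. Arid2, a subunit of a SWI/SNF chromatin remodelling complex, had 103 counts at 29 positions, 14 of them near TATTTA, and 79 of the counts stood in a cluster that peaked 580 nt after the stop codon. Tnfaip3, which encodes the NF-kB inhibitor A20, had 60 counts at 22 positions, 16 of them near TATTTA, in clusters of 39 and 15 counts and a smaller one. Rc3h2, which encodes Roquin-2, itself a protein that triggers mRNA decay, had 103 counts at 37 positions. TATTTA was near 11 of these, in a cluster of 32 counts 1934 nt after the stop codon, whereas a larger cluster of 57 counts at 549 nt had no TATTTA near any position. Tcf12, an E protein transcription factor, had 46 counts at 14 positions in its 3′ UTR, all near TATTTA, and Ccnb1, the mitotic cyclin B1, had 34 counts at 9 positions, 6 of them near it.

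Other transcripts had much 3′ UTR signal with little or no TATTTA near it. Entr1, a regulator of endosomal trafficking, had 175 counts at 31 positions in 1 cluster, the largest cluster of all, with 12 at the highest position. Its base was T at 83.9% of positions. Hnrnpl, a splicing regulator, had 119 counts at 41 positions, of which 106 stood in a cluster of 33 positions 95 nt after the stop codon. Rmnd5a, a subunit of an E3 ubiquitin ligase complex, had 81 counts at 38 positions, 57 of them in 1 cluster. Pan3, a subunit of a poly(A)-specific nuclease that shortens mRNA tails, had 133 counts at 43 positions its largest clusters holding 59, 42, 14 and 10 counts, and TATTTA was near 2 of the 43. No position of Entr1, Hnrnpl or Rmnd5a had TATTTA within 20 nt.

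**Figure D4:**
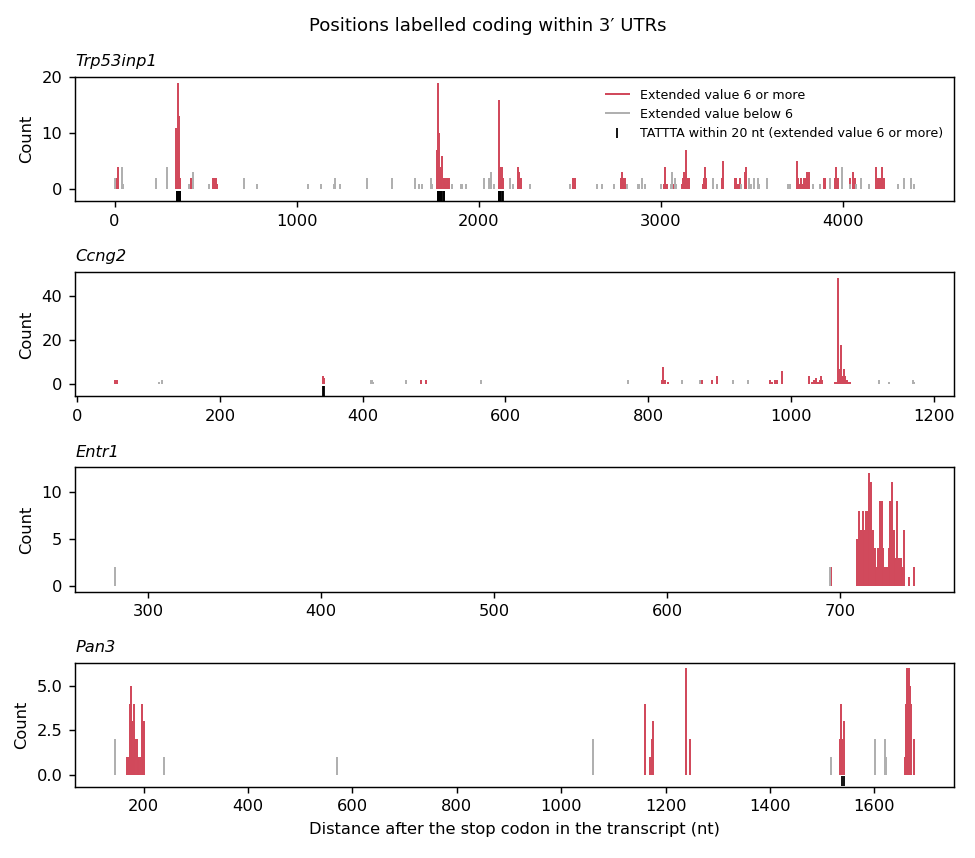
Each vertical line is a position labelled coding in the 3′ UTR of Trp53inp1, Ccng2, Entr1 or Pan3, plotted as its count against its distance in nt after the stop codon, in red for an extended value of 6 or more and grey below 6, with black ticks where a clustered position had TATTTA within 20 nt. Trp53inp1 has 21 clusters along its 3′ UTR, Entr1 has 1, and the highest line of Ccng2, at 48 counts, has no tick.

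Coding exons held fewer and narrower clusters. By the strongest position, 213 clusters lay in coding exons with a median of 7 counts and a width of 9 nt, against 301 in 3′ UTRs with 9 counts and 15 nt. The coding positions were spread along the reading frame: 729 could be placed in a reading frame, and codon positions 1, 2 and 3 held 35.3%, 33.5% and 31.3%, against 34.5%, 30.4% and 35.1% below 6. The median lay 49% along the coding sequence, against 48.7% below 6. In the last 100 nt before the end of the stop codon lay 89 (12.2%), against 5.90% below 6. Transcripts with a single exon gave 135 of the 729, against 285 of 19410 below 6.

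Mitochondrially encoded transcripts made up part of the coding signal. They gave 83 of the 742 positions (11.2%) and 355 of the 2067 counts (17.2%). mt-Nd1, a subunit of respiratory complex I, had 206 counts at 29 positions, of which 140 stood in a cluster of 19 nt around the position shown above and 52 in another of 12 nt. mt-Co1, the catalytic subunit of complex IV, had 53 counts at 24 positions. The complex I subunits mt-Nd6, encoded on the opposite strand, and mt-Nd2 had 50 counts at 21 positions and 32 counts at 6. TATTTA was near 34 of the 83 mitochondrial positions (41%, 31.0 to 51.7), against 3 of 62 below 6 (4.84%). All of the 34 lay in mt-Nd1 (14), mt-Nd6 (12) and mt-Co1 (8). Neighbouring positions share their sequence, so this interval is too narrow.

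Without the mitochondrial genes the motif remained more frequent at clustered coding positions. It was near 100 of 659 (15.2%, 12.6 to 18.1), against 1.55% below 6, and these 100 positions lay in 24 of 167 genes. The sums were small. Rnf145, a ubiquitin ligase of the endoplasmic reticulum, had 18 counts at 9 such positions, Slc35b4, a nucleotide sugar transporter, 15 at 8, Rnf167, a ubiquitin ligase of endosomes, 15 at 6, and Atxn2, an RNA-binding protein, 13 at 7. Cd8a, a coreceptor of T cells, had 7 counts at 3. Rnf145, Slc35b4, Rnf167, Atxn2 and Cd8a were chosen after their values had been seen. Over all coding exons, 29 distinct copies of TATTTA lay near a clustered position. By distance from that position they began at codon position 1 in 3 cases, position 2 in 17 and position 3 in 9. Below 6 these were 74, 96 and 92 of 262 copies. Whether a copy lay in the same exon and before the stop codon was not checked. A copy in an intron or 3′ UTR thus also received a codon position, and no reading frame can be taken from these numbers.

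The highest coding sums in nuclear genes were not at TATTTA. Trip12, a ubiquitin ligase, had 105 counts at 17 positions, 98 of them in a cluster of 27 nt whose peak of 23 is shown above, and the window held TTTATT but no TATTTA. Washc1, a subunit of the WASH complex that nucleates actin on endosomes, had 62 counts at a single position with no other clustered position in the gene. Iqch, chosen after its value was seen, likewise had 17 at 1. Rag1, the recombinase that cuts antigen receptor genes, had 58 counts at 29 positions in 6 clusters of its coding exon, the largest of 22 counts, and none was near TATTTA. The same gene had 421 positions and 2012 counts labelled 3′ UTR by the authors.

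The other leading nuclear genes with coding exon signal encode histones, splicing factors and, in Satb1, a chromatin organiser. Hist3h2a, an H2A gene, had 41 counts in 1 cluster of 13 positions and 41 nt, and Hist1h1d, a linker histone gene, had 27 counts at 13 positions. None of the positions of Hist3h2a and Hist1h1d was near TATTTA. Srrm2, a scaffold of nuclear speckles, had 40 counts at 14 positions, but the 30 nt that follow 12 of these occur more than once in the genome, so their origin is uncertain. Hnrnph1, a splicing regulator, had 37 counts at 5 positions, 33 of them in 6 nt. Satb1 had 33 counts at 14 positions in 4 clusters, none near TATTTA.

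A few coding positions stood exactly at the end of an exon. The listed position was the last base of an exon at 25 of 729 clustered positions (3.43%) and at 8.19% of those below 6, and the first base at 3. The highest count was 7, at the position of Satb1 shown above, which encodes a chromatin organiser of thymocytes. Counts of 6 stood in Tcf7 and Myb, which encode transcription factors, Edem1, which encodes a factor of protein quality control in the endoplasmic reticulum, and Nup85, which encodes a nuclear pore subunit. A count of 4 stood at 10 positions, among them 1 each in Satb1 and Actb, which encodes cytoplasmic actin. The hexamer GGTAAG, in which GT opens the intron, lay near 7.68% of clustered coding positions and 6.28% below 6. Tcf7, Myb, Edem1 and Nup85 were named here after their values had been seen.

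Retained intron and other non-coding transcripts held the rest of the leading genes. Ogt, the enzyme that adds O-GlcNAc to nuclear and cytoplasmic proteins, had 98 counts at 38 retained intron positions, of which 66 stood in a cluster of 29 nt, and 35 counts at 11 positions of other non-coding transcripts. Rsrp1, which encodes an arginine- and serine-rich protein, had 81 counts at 26 retained intron positions and 45 at 17 in the 3′ UTR. Mier1, a transcriptional corepressor, had 34 counts at 14 retained intron positions and 21 at 13 of other non-coding transcripts. Sfpq, a splicing factor of paraspeckles, had 49 counts at 22 positions and Csnk1a1, a kinase of the Wnt pathway, 55 at 18, all in other non-coding transcripts. TATTTA was near 11 of the 18 in Csnk1a1 and near none in Rsrp1 or Sfpq. In retained introns 14.8% of positions were followed by 30 nt that occur more than once in the genome, against 3.50% in coding exons and 3.82% in 3′ UTRs.

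**Figure D5:**
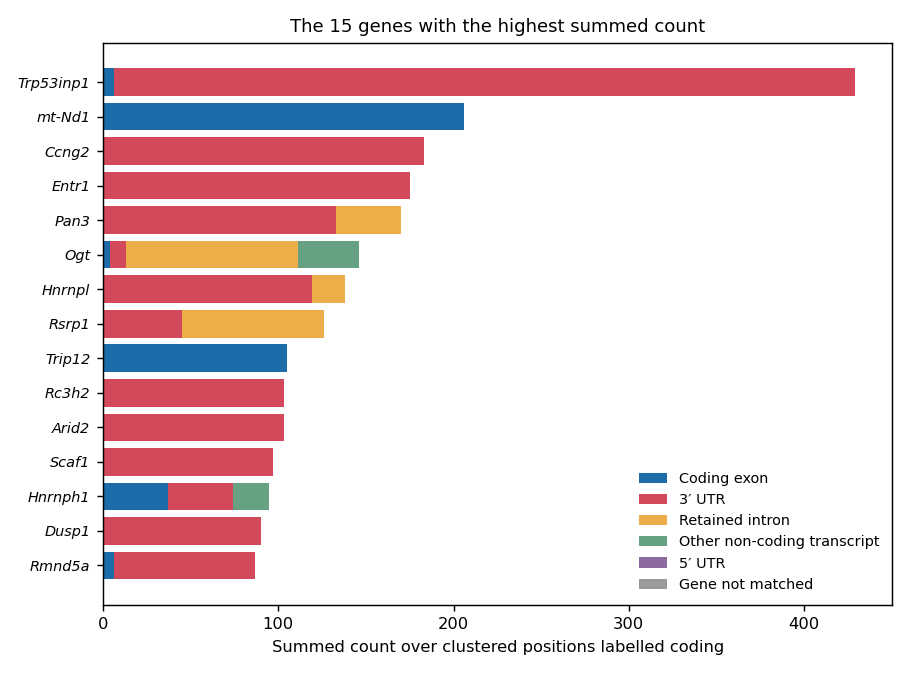
The bars give the summed count over clustered positions labelled coding for the 15 genes with the highest sums, coloured by GENCODE segment. Trp53inp1 is highest at 429 counts, nearly all in the 3′ UTR, mt-Nd1 (206) and Trip12 (105) lie wholly in coding exons, and Ogt (146) lies mainly in retained intron transcripts.

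Splicing regulators and T lineage transcription factors had the highest shares of genes with a clustered position among the 10 lists. Of 30 splicing and RNA-binding protein genes 18 (60%) had one, with 667 counts in all, in coding exons of 9, in 3′ UTRs of 8 and in retained introns of 10. Hnrnpl (138 counts) and Hnrnph1 (95) led them. Of 19 T lineage transcription factors 11 (57.9%) had one, led by Tcf12 (57) and by Lef1 (43), whose positions were all in a retained intron. With a threshold of 10 on the extended value these counts were 11 of 30 and 6 of 19, against 236 of all 6793 genes. The background at the threshold of 6 is 7.8% of genes. It takes in genes with few positions of any kind: the median number of positions labelled coding was 24 in the splicing list and 13 in the T lineage list, against 2 for all genes and 16 for genes with a clustered position. The part of transcript abundance in these shares was not tested.

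The other lists had lower shares. T cell receptor signalling genes had 8 of 22 (36.4%), led by the kinase Lck (36 counts, 33 of them in a retained intron) and the phosphatase Ptprc (26, all in coding exons). Chromatin factors had 8 of 27 (29.6%), with Hdac7 at 44 and Hmgb1 at 31. The p53 list had 3 of 12 (25%), which were Trp53inp1, Ccng2 and Mdm2. AU-rich and decay factors had 6 of 25 (24%), led by Pan3 (170) and Rc3h2 (103), and translation factors 4 of 17 (23.5%), led by the initiation factors Eif4a1 (29) and Eif4g2 (23). Chaperones and housekeeping genes had 4 of 21 (19%), with Actb at 31 and the actin-binding Tmsb4x at 10. Cell cycle genes had 3 of 21 (14.3%), with Ccnb1 at 34 and the topoisomerase Top2a at 27, and ribosomal proteins 6 of 57 (10.5%), with Rpl7a at 11 and Rpl27a at 7. With a threshold of 10 these 8 lists, in the order given, had 3, 4, 2, 3, 2, 2, 2 and 1 genes. Over all 6793 genes 236 had one at that threshold. The median number of positions labelled coding was 9.5, 16, 4, 7, 9, 6, 3 and 3 in the same order, against 2 for all genes.

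The transcripts of the ZFP36 family had few positions with this label, as most genes did. Over all genes with a position labelled coding the median was 2 such positions, and 7.8% of these genes had a clustered one. Zfp36 had 3 clustered positions with 6 counts in its coding exon, none near TATTTA, out of 7 positions and 14 counts labelled coding. Zfp36l1 had 5 positions labelled coding with 9 counts and Zfp36l2 had 2 with 3 counts, and the highest extended value in either was 2, so neither had a clustered position. These genes had 59, 71 and 49 positions labelled 3′ UTR, in the same order.

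The labelled tissue was checked against marker genes. Of 12 thymocyte marker genes with a position labelled coding, 9 had a clustered one, including Cd4, Cd8a, Rag1, Rag2, Dntt and Thy1. The counts of the thymocyte markers over all labels summed to 8064, of which 3633 were in exons. No marker of B cells, myeloid cells, erythroid cells, natural killer cells, thymic epithelium or stroma had a clustered position. Few of these carried the coding label at all, 1, 2, 4, 2, 2 and 1 genes in that order. Over all genes with a position labelled coding 7.8% had a clustered one, so finding none among so few genes says little. The sums of these other markers over all labels were 10, 31, 22, 5, 12 and 313 counts, of which 5, 9, 21, 3, 7 and 42 were in exons.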

How the data were processed

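The authors deposited 1 list of crosslink positions for the series. Its count and its extended value, a sum within 15 nt, carry the strand as a sign and were used as scores without sign, per the file headers. A deposited p-value and FDR score were not used. Bowtie and GRCm38 are named per the submitters' processing notes, and the sources used here state no version, filters or handling of the random barcodes. Barcodes had 4 random and 3 known bases and reads 100 nt, per the labels' protocols. The design had allowed for values per library; the list has none, so library depth is unknown and no test was run.

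Listed positions count from 0: at the lower-coordinate edge of coding exons, on either strand, the coding label stood at 25.8% of positions listed 2 below the edge and at 99.7% of 913 listed 1 below it, and at the upper edge it fell to 23.8% at the edge itself. Printed coordinates count from 1. Of 6793 gene names, 6449 matched GENCODE vM21, 260 were updated and 84 had no match. Where transcripts of a gene differed, a coding exon came before a UTR, and a UTR before a non-coding transcript. Patterns were searched on the RNA strand with Python 3.11.15, pandas 2.3.3 and numpy 2.4.6, and exact copies of the 30 nt after a position were counted over the genome. The steps were checked on simulated data.

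The clustered positions, gene lists and markers were chosen with earlier results of these data known. The named genes are the 12 with the highest sum in coding exons, the 12 in 3′ UTRs, the 5 in neither, up to 2 of each of 10 lists, and the ZFP36 family. The text marks any other gene as named once its values were known, except thymocyte markers and Mdm2, which come from a list. One gene is not reported here.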

Additional observations from a re-analysis of the deposited data

How the results depend on the processing

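Of 35 alternative values, 25 moved by more than their counting interval or by over 1.5 times, and 10 did not. With a threshold of 10 on the extended value there were 2017 positions, 236 of the 6793 genes and 307 clusters. The share in coding exons was then 13.4%, that in 3′ UTRs 53.7%, TATTTA was near 34.8% of 3′ UTR and 26.2% of coding exon positions, T stood at 65.7%, and list genes with a clustered position fell to 14.3% of 251, against 28.3%. Taking only the strongest position of each cluster gave 26.2% coding exon, 37.1% 3′ UTR, TATTTA near 24.6% and 12.2% of these, and T at 59.1%. Without the 5 genes with most positions, coding exons held 21.2%, 3′ UTRs 41.2%, and TATTTA was near 29.8% of 3′ UTR positions. Outside soft-masked sequence, coding exons held 33.5%, 3′ UTRs 40.4%, and T stood at 50.2%. Within 10 nt TATTTA was near 17.7% of 3′ UTR and 12% of coding exon positions, and within 50 nt near 36% and 21.3%. Leaving out mitochondrial genes, chosen after seeing the data, gave 15.2% in coding exons, and leaving out Trp53inp1, also chosen then, 27.4% in 3′ UTRs. The cause of these shifts was not tested beyond the smaller sets and other windows that the alternatives use. No paired analysis was possible because the list has no library column, and leaving out each library could not be run for the same reason. Most positions have 1 or 2 counts, which limits what a single position shows, and pooled counts give no spread between mice.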
